A study of Mus musculus with 30 samples.

Results

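The genes described here are those that make cholesterol and long-chain fatty acids, together with the proteins that regulate the pathway and move its products. A list of 35 mouse genes was used, and a gene was counted as measured where at least 1 probe set of the Affymetrix Mouse Genome 430 2.0 array was annotated with its symbol alone. This held for 34 of the 35, since *Acat2* had no such probe set, and each gene was followed by its brightest probe set over all arrays. They were 34 of the 18194 genes measured in this way. Total RNA came from C2C12 cells, a mouse myoblast line that fuses into myotubes when serum is lowered and turns towards bone-forming cells when bone morphogenetic protein 2 (BMP2) is added. Both lines had been transduced with a lentivirus and sorted as a pool for the green fluorescent marker copGFP, which the controls therefore carry too. C2C12-pMirn378 overexpressed the miR-378 precursor and C2C12-pMirn0 carried the parent lentivector, in which a CMV promoter stands before the cloning site and an EF1 promoter before copGFP. Each line was sampled in growing cells at d0 and after 3 and 6 days in differentiation medium, untreated or with 300 ng/ml BMP2, in 3 arrays per group and 30 arrays in all. The triplicates are repeat experiments on the same transduced pools, so the p-values below measure the spread between such experiments and not between independently made lines. In bulk RNA of this kind, fewer cells expressing a gene and less RNA per cell cannot be told apart.

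Cholesterol is built from acetyl units through mevalonate and isoprenoid intermediates to squalene, which is closed into lanosterol and trimmed to cholesterol. When membrane sterol runs short, the SCAP protein escorts the SREBP transcription factors out of the endoplasmic reticulum, where INSIG proteins otherwise hold them, and the freed SREBP fragments switch on the genes of the pathway. In muscle and bone cells the products supply membrane, and isoprenoids anchor signalling proteins to it.

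Promoters of 4 members that fell with BMP2 and 1 that rose are shown here because SREBPs are known to act at such sites together with the factors NF-Y and Sp1. RefSeq sequence (build GRCm38.p6) of the 250 bases before the annotated start was at hand for 28 of the 35 listed genes, and not for *Fdft1*, *Fdps*, *Npc1*, *Scd1*, *Scd2*, *Sqle* and *Stard4*. Letters were searched on both strands. The NF-Y box CCAAT was present in 22 of the 28, or 78.6%, against 39.48% of the promoters of 17491 protein-coding genes. The GC box GGGCGG was present in 23, or 82.1%, against 45.78%, and the E-box CACGTG in 6, or 21.4%, against 7.61%. A strict sterol regulatory element, TCACNCCAC, was found in 1 promoter, that of *Hmgcs1* (3.6% of the members against 1.2% of all). These are matches of letters and not measured binding. In the 5 promoters below, each 5′ to 3′ along its gene, capitals mark every match, with ATTGG and CCGCCC being the NF-Y and GC boxes read on the other strand. *Hmgcs1* lies on the plus strand at chr13:119690101-119690350, *Idi1* on the plus strand at chr13:8885356-8885605, *Insig1* on the plus strand at chr5:28071162-28071411, *Ebp* on the minus strand at chrX:8193513-8193762 and *Mylip* on the plus strand at chr13:45389492-45389741.
Hmgcs1: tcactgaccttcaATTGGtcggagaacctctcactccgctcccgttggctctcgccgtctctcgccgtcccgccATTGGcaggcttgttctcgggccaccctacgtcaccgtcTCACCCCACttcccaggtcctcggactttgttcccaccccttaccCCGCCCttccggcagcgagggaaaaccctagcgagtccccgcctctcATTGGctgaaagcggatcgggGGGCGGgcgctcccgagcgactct
Idi1: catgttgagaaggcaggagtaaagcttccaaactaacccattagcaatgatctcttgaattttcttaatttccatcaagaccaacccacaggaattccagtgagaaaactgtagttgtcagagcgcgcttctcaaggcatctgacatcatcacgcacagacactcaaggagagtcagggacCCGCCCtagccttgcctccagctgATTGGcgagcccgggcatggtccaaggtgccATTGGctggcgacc
Insig1: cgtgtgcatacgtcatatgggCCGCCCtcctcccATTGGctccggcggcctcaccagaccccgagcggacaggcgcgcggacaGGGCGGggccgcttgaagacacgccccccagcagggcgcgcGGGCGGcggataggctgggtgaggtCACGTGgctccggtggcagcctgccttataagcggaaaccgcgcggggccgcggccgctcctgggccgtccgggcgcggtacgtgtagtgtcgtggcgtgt
Ebp: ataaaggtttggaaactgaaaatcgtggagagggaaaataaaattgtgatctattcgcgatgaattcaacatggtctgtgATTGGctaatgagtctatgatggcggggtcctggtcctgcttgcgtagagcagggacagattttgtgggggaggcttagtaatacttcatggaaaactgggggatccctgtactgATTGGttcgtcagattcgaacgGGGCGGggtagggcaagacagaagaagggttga
Mylip: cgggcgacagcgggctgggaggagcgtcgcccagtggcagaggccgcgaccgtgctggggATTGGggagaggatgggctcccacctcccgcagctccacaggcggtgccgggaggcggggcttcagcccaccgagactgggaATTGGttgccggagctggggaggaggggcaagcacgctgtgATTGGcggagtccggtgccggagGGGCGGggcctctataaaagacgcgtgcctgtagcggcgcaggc
The NF-Y and GC boxes occurred both in the promoters of genes that fell with BMP2 and in that of *Mylip*, which rose.

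Values are the deposited expression values on a linear scale, given per array or as the mean ± SD of 3 arrays (AEV, average expression value). Ratios are log2, fitted with limma over all probe sets. For a difference between lines or an effect of BMP2, a call required a log2 ratio beyond 0.6 in either direction together with an adjusted p under 0.005. For differentiation, a call required that adjusted p for d6 against d0 and an average of both log2 ratios to d0, at d3 and at d6, beyond 0.6. Array medians lay between 68.0 and 82.7, and 26 of the 30 arrays correlated best with an array of their own group. Of the 34 members, *Abca1* alone had groups below the median of all values, 76.5, and these were its d0 groups. A larger share of bright genes was called, so shares among the 10969 genes averaging at or above that median are also given for the main comparisons. The labelled treatment was checked by its markers, and the osteoblast factor gene *Sp7* was at 106 ± 12.1 untreated and 1089.7 ± 120.4 with BMP2 in control cells at d3, while the muscle factor gene *Myog* was at 20615 ± 1109 and 2793 ± 48.4. The probe sets of *Hmgcs1*, *Fdft1*, *Hsd17b7* and *Acly* (suffix _x_at) and of *Lss* (suffix _s_at) are of types that can match other transcripts too. Over the 16 comparisons described below, *Pmvk*, *Sc5d*, *Srebf1* and *Scd2* were called in none and each of the other 30 members in at least 1.

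**Figure D1:**
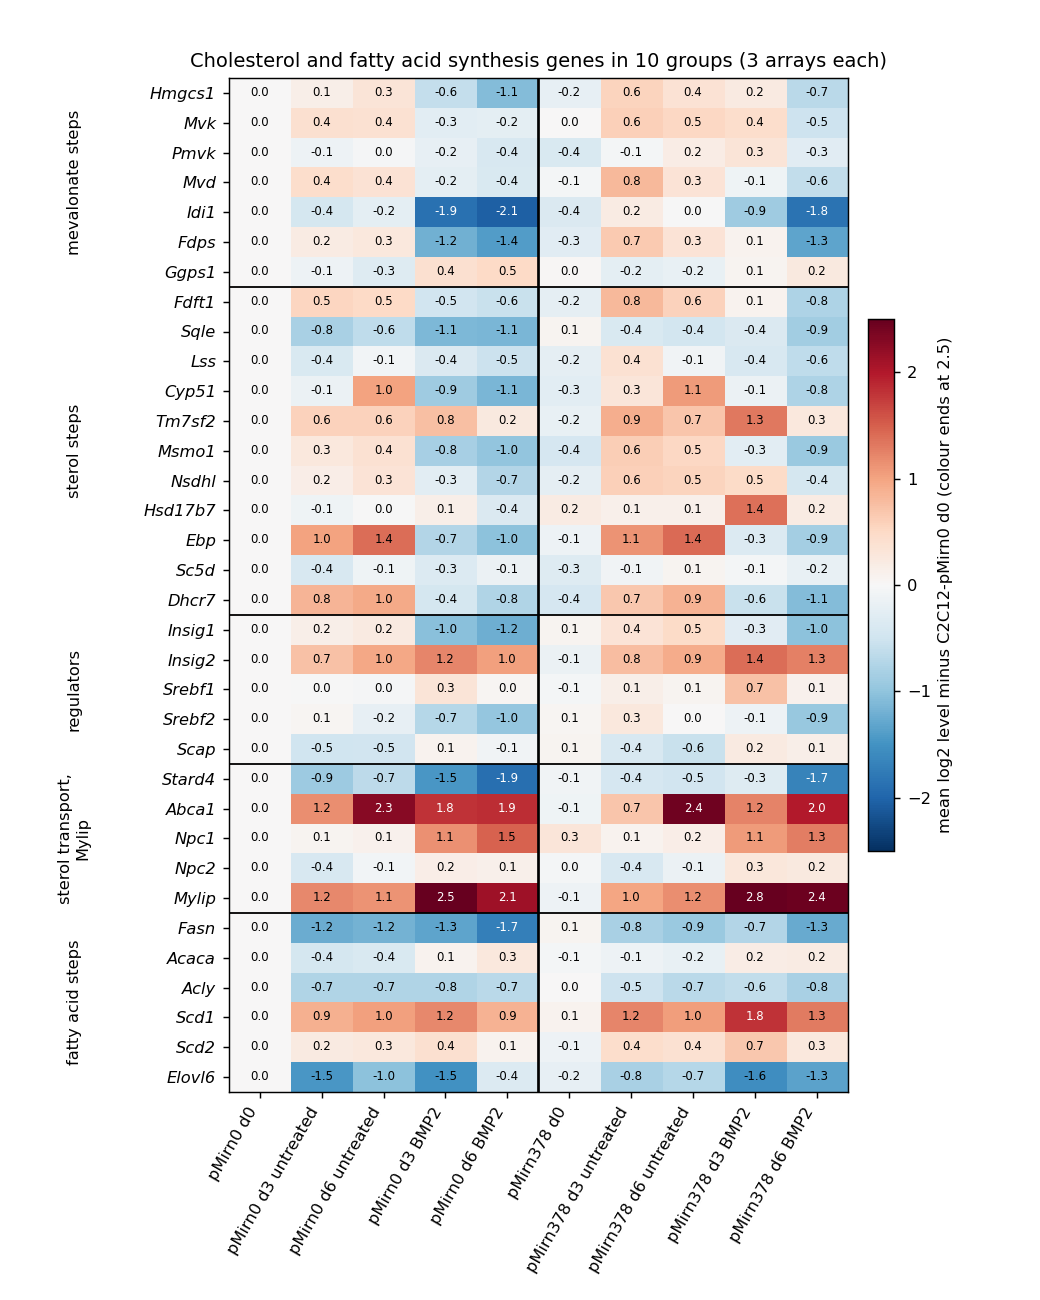
Heat map of the 34 measured genes (rows, by role) in the 10 groups (columns), each cell giving the mean log2 level of 3 arrays minus that of C2C12-pMirn0 at d0. Most sterol and mevalonate genes are blue in the control line with BMP2 at d3 and d6, and nearer white or red in C2C12-pMirn378 with BMP2 at d3, while *Mylip*, *Abca1* and *Insig2* are red in every group after d0.

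Many cholesterol synthesis genes were lower in BMP2-treated than in untreated cells. In control cells at d6, 14 of the 34 members were lower with BMP2 than without and 5 were higher, whereas 10.6% of all genes were called lower and 11% higher (16.3% and 17.3% of the bright genes). The members' median log2 ratio was -0.45, beside 0.08 over all genes. Of the 7 measured mevalonate genes 5 fell, of the 11 sterol genes 6 fell and none rose, and of the 6 fatty acid genes none fell and 2 rose. At d3 the counts were 12 lower and 2 higher (all genes, 8.48% and 11.2%, and bright genes, 13.2% and 17.7%), with a median of -0.06 beside 0.05. The falls were deepest in *Ebp* (-1.73), *Idi1* (-1.43), *Fdps* (-1.40) and *Dhcr7* (-1.28). The median of the 11 sterol genes alone was -0.44 at d3 and -1.05 at d6, and that of the 7 mevalonate genes -0.68 and -0.75.

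Among the mevalonate genes, *Idi1*, the isomerase that makes the activated isoprene unit, had values of 1867, 1773 and 1836 in untreated control arrays at d6 and 569, 529 and 463 with BMP2. The groups lay far apart (log2 ratio -1.82, SE 0.12, adjusted p = 4.2e-11). *Fdps*, which joins isoprene units into farnesyl diphosphate, was at 4286, 4686 and 4409 untreated and 1246, 1696 and 1336 with BMP2 (log2 ratio -1.66, SE 0.12, adjusted p = 1.1e-10). *Hmgcs1*, the synthase that makes HMG-CoA at the head of the pathway, went from 6277, 6085 and 6328 to 2356, 2523 and 2165 (log2 ratio -1.41, SE 0.08, adjusted p = 1.4e-12). All BMP2 arrays of these genes were below all untreated ones. *Mvk* and *Mvd*, which phosphorylate and decarboxylate mevalonate, fell by 0.63 and 0.75 on the log2 scale at d6. The call of *Mvk* was lost without untreated replicate 1 or 2 or BMP2 replicate 1, over a range of -0.77 to -0.45, and at d3 that of *Mvk* was lost without untreated replicate 3 or BMP2 replicate 2 or 3 (-0.75 to -0.57) and that of *Mvd* without untreated replicate 3 or BMP2 replicate 2 (-0.76 to -0.56). *Pmvk*, the kinase between them, was not called (-0.36, adjusted p = 0.031). *Ggps1*, which diverts farnesyl diphosphate into geranylgeranyl groups for protein anchoring, went the other way, from 594, 619 and 575 to 1077, 1095 and 985 (log2 ratio 0.82, SE 0.08, adjusted p = 1.3e-08), although another bright probe set of *Ggps1* had a ratio of opposite sign, -0.24, that was not called.

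The sterol steps held the deepest falls. *Ebp*, the sterol isomerase, was at 5803, 6290.5 and 6093 untreated and 1066, 1113 and 1181 with BMP2 in control cells at d6 (log2 ratio -2.44, SE 0.07, adjusted p = 3.8e-17), and at 4421, 4318 and 5073 against 1372, 1330.3 and 1456 at d3 (-1.73, adjusted p = 1.7e-14). The untreated values had risen from 2414, 2274 and 2192 at d0, so the BMP2 arrays lay below the starting level as well as below the untreated cells. *Cyp51*, the lanosterol demethylase, had 2575, 2566 and 2726 untreated and 606, 605 and 572 with BMP2 (log2 ratio -2.14, SE 0.09, adjusted p = 6.8e-15). *Dhcr7*, a late reductase of the pathway, had 868, 823 and 882 and 245, 246 and 295 (log2 ratio -1.71, SE 0.15, adjusted p = 3.1e-09). In control cells *Dhcr7* too had risen from d0 without BMP2 (0.90), and with BMP2 it was not called against d0. The methyl sterol oxidase gene *Msmo1* (-1.36), *Nsdhl*, which removes the same methyl groups (-1.07), and the squalene synthase gene *Fdft1* (-1.05) made up the rest of the called genes. Read as the mean of all its probe sets, dim ones included, *Fdft1* was at 0.15 and was not called. *Sqle*, *Lss*, *Tm7sf2*, *Hsd17b7* and *Sc5d* were not called at d6, with log2 ratios from -0.50 to -0.04.

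Of the 5 regulators 2 fell and none rose. *Insig1*, which retains SCAP and is itself an SREBP target, was at 1206, 1159 and 1314 untreated and 427, 443 and 471 with BMP2 in control cells at d6 (log2 ratio -1.46, SE 0.12, adjusted p = 7.0e-10). *Srebf2*, which encodes the SREBP form that mainly drives sterol genes, was at 1059, 1149 and 1058 and 613, 608 and 713 (log2 ratio -0.76, SE 0.09, adjusted p = 2.6e-07). Both fell at d3 too (-1.20 and -0.77). The other bright probe set of *Srebf2* was at -0.41 at d6 and -0.33 at d3 in control cells and was called at neither. In C2C12-pMirn378 at d6 that probe set was at -0.25 and not called, against -0.95 for the one used. *Srebf1*, whose products drive mainly fatty acid genes, was 0.07 at d6 and not called. *Insig2*, the second SCAP-retaining protein, rose in both media from 1573 ± 48.7 at d0 to 3085 ± 60.9 untreated and 3183 ± 6.67 with BMP2 at d6 (SD, n = 3), and BMP2 made no called difference at that time (0.05, 95% interval -0.08 to 0.17).

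Of the 5 genes of sterol movement and receptor turnover, 2 rose at both times and 1 fell at d6. *Mylip*, an E3 ubiquitin ligase that marks lipoprotein receptors for breakdown, had 1292, 1210.1 and 1193 untreated and 2908, 2978 and 3140.1 with BMP2 in control cells at d3 (log2 ratio 1.29, SE 0.07, adjusted p = 2.6e-12). *Npc1*, which releases cholesterol from lysosomes, had 485, 406 and 517 untreated and 1281, 1169 and 1168 with BMP2 at d6 (log2 ratio 1.37, SE 0.12, adjusted p = 2.4e-09). Its ratio at d3 was 1.08, and that of *Mylip* at d6 was 1.01. *Npc2*, its soluble partner, was at 11791 ± 407 and 13616 ± 489.6 and was not called (0.21). *Stard4*, a carrier of cholesterol between membranes, fell, from 358, 482 and 437 to 140.5, 201 and 214 (log2 ratio -1.21, SE 0.17, adjusted p = 5.3e-06). *Abca1*, which exports cholesterol from the cell, gave log2 ratios of 0.64 at d3 and -0.43 at d6 and was called at neither, the adjusted p-values being 0.013 and 0.098.

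Among the fatty acid genes the BMP2 effect in control cells was called for none at d3 and for 2 at d6. *Acaca*, the acetyl-CoA carboxylase, was at 605, 649.7 and 648 untreated and 997, 1037 and 948 with BMP2 in control cells at d6 and rose (log2 ratio 0.65, SE 0.08, adjusted p = 6.3e-07). *Elovl6*, which lengthens palmitate, was at 567, 675 and 689 untreated and 1098, 1002 and 990.4 with BMP2 at d6 (log2 ratio 0.68, SE 0.09, adjusted p = 1.7e-06). That call was lost without untreated replicate 1, at a ratio of 0.59. The other bright probe set of *Elovl6* was at 0.51 and not called. *Fasn*, the fatty acid synthase, was at -0.52 with an adjusted p of 7.0e-05, short of the ratio required. *Acly* (0.07), *Scd1* (-0.16) and *Scd2* (-0.19) were not called, and *Scd2*, a desaturase, was at 16352 ± 901 untreated and 14379 ± 706 with BMP2.

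C2C12-pMirn378 also had more members lower than higher with BMP2. At d6 with BMP2, 15 of the 34 members were lower than untreated and 3 were higher (all genes, 11.1% and 10.8%). Of the bright genes 16.8% were lower and 17% higher, and the members' median was -0.46 beside -0.03 over all genes. The deepest falls below the untreated level were *Ebp* from 6308, 6248 and 5703 to 1229, 1354 and 1213 (-2.27), *Dhcr7* (-1.96), *Cyp51* (-1.84) and *Idi1* (-1.83), each with an SE of 0.15 or less. *Mylip* (1.28), *Npc1* (1.12) and *Scap* (0.71), the SREBP escort, rose. *Elovl6* was called lower (-0.62), a call lost without untreated replicate 1 or 3 or BMP2 replicate 1 (-0.70 to -0.58). Its other bright probe set was at -0.43 and not called. Without BMP2, *Ebp* (1.40), *Dhcr7* (1.18) and *Cyp51* (0.95) had risen from d0 in this line. With BMP2 they were not called against d0. At d3, 9 members were lower and 6 higher with BMP2 than untreated (all genes, 9.84% and 13.3%). Of the bright genes 15% were lower and 21.2% higher there, and the members' median was 0.02 beside -0.03 over all genes. Of the mevalonate genes only *Idi1* (-1.10) and *Mvd* (-0.91) were called lower at d3 in this line, against 5 in the control line. The other falls at d3 were *Ebp* (-1.46), *Dhcr7* (-1.24), *Msmo1* (-0.89), *Lss* (-0.78), *Elovl6* (-0.74), *Fdft1* (-0.72) and *Insig1* (-0.64). The genes called higher were *Mylip* (1.86), *Hsd17b7* (1.24), *Npc1* (0.97), *Npc2* (0.67), *Insig2* (0.63) and *Scap* (0.63). The call of *Insig1* was lost without untreated replicate 3 or BMP2 replicate 1 (-0.76 to -0.49), and that of *Scap* without untreated replicate 2 or BMP2 replicate 1 or 2 (0.56 to 0.76). A difference between the lines in the number of calls is not a test, and the interaction described below gives that test gene by gene.

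**Figure D2:**
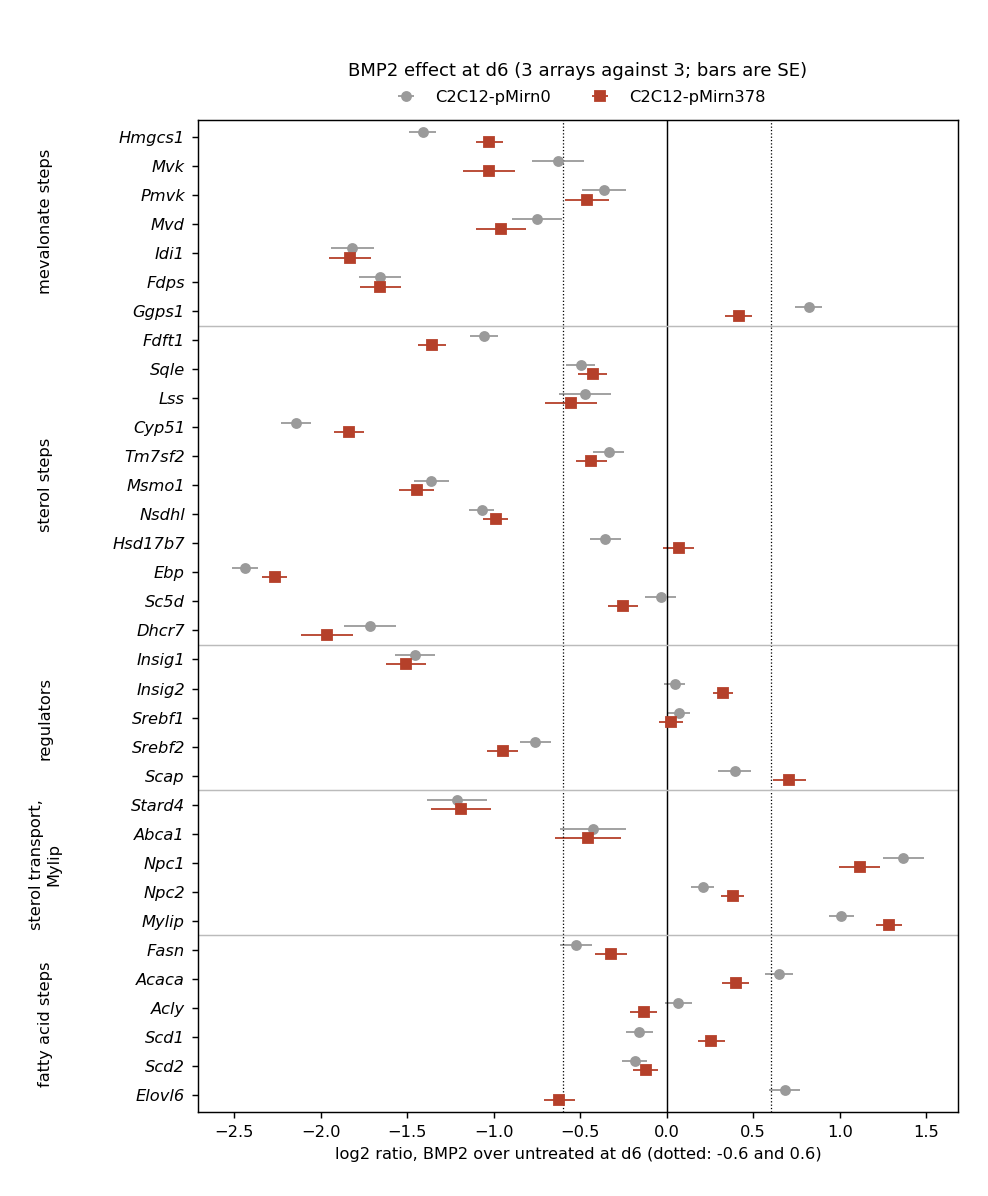
Effect of BMP2 at d6 in each line, as the log2 ratio of BMP2 over untreated (horizontal axis) for the 34 members by role, with bars giving the SE of the fit (3 arrays against 3). Circles for C2C12-pMirn0 and squares for C2C12-pMirn378 lie close for most genes, from *Ebp* at -2.44 and -2.27 to *Npc1* at 1.37 and 1.12, and on opposite sides of 0 for *Elovl6*, at 0.68 and -0.62.

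Other markers moved with BMP2 in these comparisons. The 5 skeletal muscle markers, summed per array, were at 86790 to 97976 in untreated control arrays at d6 and at 11433 to 12893 with BMP2, and all 5 were called lower. Of 3 measured osteoblast markers, *Sp7* and *Alpl* were called higher there at d6 and all 3 at d3. Of 6 measured adipocyte markers, *Fabp4* (7.22), *Pparg* (2.17) and *Lpl* (1.61) were called higher and *Cd36* (-3.11) lower, their summed level being 5032 to 5241 untreated and 13732 to 14053 with BMP2, while the defining marker *Adipoq* stayed between 7.94 and 19.7 on average in all 10 groups, far below the median of all values. Of 3 measured chondrocyte markers, the cartilage collagen gene *Col2a1* was called higher at d3 (5.65) and d6 (5.46), rising from 10.3 ± 7.27 to 344 ± 22.9 at d6, and *Sox9* at d3 (0.83). Of the 5 division markers 3 were called lower at d6 and 2 higher at d3 in control cells. In C2C12-pMirn378 with BMP2, all 5 muscle markers were lower and all 3 osteoblast markers higher at both times. There all 5 division markers were higher at d3 (1.43 to 2.05) and 4 lower at d6, *Col2a1* was higher at both times (6.49 and 5.15) and *Sox9* at d3 (1.06). Among the adipocyte markers of that line *Fabp4* and *Lpl* were higher and *Cd36* lower at both times, and *Pparg* was higher at d6. Endothelial and leukocyte markers had no call in either line. The part of these markers in the sterol gene differences was not tested.

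The lines differed in more members at d3 with BMP2 than at any other time. There, 12 of the 34 members were called higher in C2C12-pMirn378 and none was lower, or 35.3% of the members against 2.49% of all genes called higher and 1.87% lower. Among the bright genes 4.06% were called higher. The members' median log2 ratio was 0.47 beside -0.01 over all genes, and 28 of the 34 ratios were above 0. Of the 7 mevalonate genes 4 were called, of the 11 sterol genes 4, of the 5 regulators 1, of the 5 transport genes 1 and of the 6 fatty acid genes 2.

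**Figure D3:**
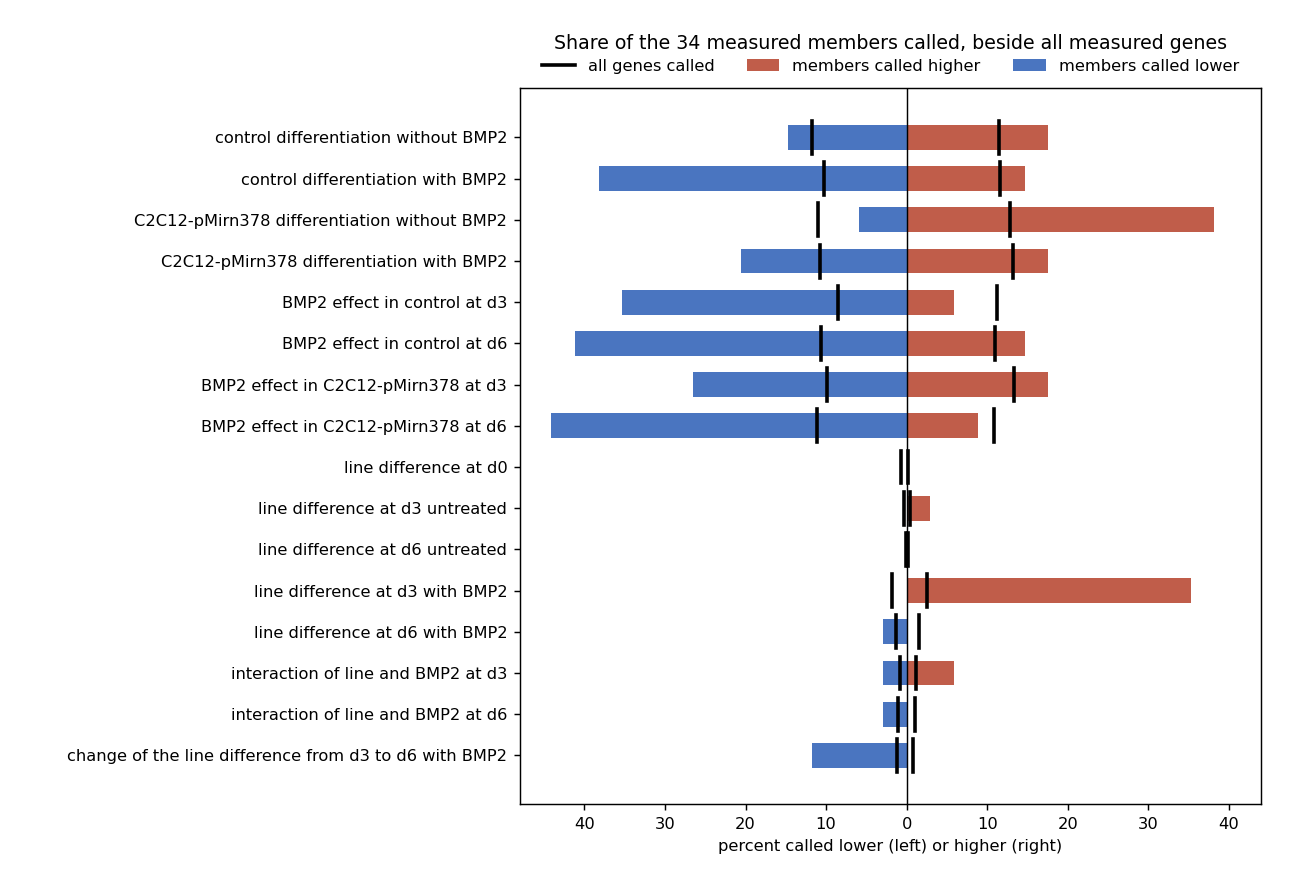
Percent of the 34 measured members called higher (bars to the right) or lower (bars to the left) in each of 16 comparisons, with black marks at the percent of all 18194 genes called by the same rule. The bars pass the marks clearly for genes lower with BMP2 and for genes higher in C2C12-pMirn378 at d3 with BMP2, 35.3% against 2.49%. They also do so for genes higher in C2C12-pMirn378 differentiation without BMP2, 38.2% against 12.8%.

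*Fdps* had the widest gap, with 1415, 1845 and 1667 in the control arrays and 3437, 4125 and 4464 in C2C12-pMirn378 (log2 ratio 1.29, SE 0.12, adjusted p = 8.1e-08). *Hsd17b7*, a ketosteroid reductase of the demethylation steps, had 756, 847 and 849 and 1771, 1987 and 1974 (log2 ratio 1.22, SE 0.09, adjusted p = 3.5e-09). For both genes every C2C12-pMirn378 array was above every control array. *Stard4* had 263, 257 and 215 and 522, 536 and 547 (log2 ratio 1.13, SE 0.17, adjusted p = 7.5e-05). *Idi1* had 618, 597 and 554 and 939.8, 1247 and 1335 (log2 ratio 0.98, SE 0.12, adjusted p = 6.4e-06). In the latter 2 genes the groups were again separate, while the untreated C2C12-pMirn378 arrays had *Stard4* at 475, 539 and 489. *Hmgcs1*, at 3347, 3302 and 3207 against 5143, 5839 and 6486, had a log2 ratio of 0.82 (adjusted p = 1.5e-07).

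The remaining called genes had smaller ratios. *Insig1* (0.76), the squalene epoxidase gene *Sqle* (0.75), *Cyp51* (0.75), *Nsdhl* (0.74) and *Mvk* (0.72) lay between 0.71 and 0.77. In this line difference other bright probe sets were not called for *Idi1* (0.59) or *Cyp51* (0.47 and 0.53). For *Hmgcs1* 3 of 4 were called, and those of *Stard4*, *Hsd17b7*, *Mvk* and *Scd1* were all called. *Scd1*, the stearoyl-CoA desaturase, and *Fasn* were only just past the threshold, at 0.61 and 0.60, and each lost its call without control replicate 2 or 3 or C2C12-pMirn378 replicate 1 (0.56 to 0.66 for *Scd1*, 0.54 to 0.64 for *Fasn*). The call of *Mvk* was lost without any 1 of the arrays but control replicate 1, at ratios of 0.67 to 0.79 and an adjusted p of up to 0.014. Just short of the ratio were *Srebf2* (0.59), *Tm7sf2* (0.57), *Fdft1* (0.56) and *Msmo1* (0.56), all with adjusted p-values of 0.00041 or less. *Ebp*, with the deepest fall under BMP2, had a line difference of 0.39 (adjusted p = 7.7e-04), and *Dhcr7* one of -0.13 (95% interval -0.44 to 0.18). Below 0 were also *Abca1* (-0.56, adjusted p = 0.067) and *Ggps1* (-0.32, adjusted p = 0.0072). With the fit restricted to the 6 arrays of the comparison no member passed the threshold, although 23 of the 34 had an unadjusted limma p under 0.05.

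Markers of other states moved in the same comparison. All 5 measured markers of division were called higher in C2C12-pMirn378 at d3 with BMP2, from 1.64 for *Cdk1* to 2.60 for *Birc5*. Their summed level was 3477 to 3897 in the control arrays and 14328 to 14724 in C2C12-pMirn378, beside 31086 to 33014 in the growing cells of both lines at d0. All 5 were also called higher at d3 untreated (0.69 to 1.08), and none was called at d6 with BMP2, where the sums were 1904 to 1919 and 1790 to 2004. The osteoblast gene *Sp7* (1.33) and the lipase gene *Lpl* (0.74) were higher too, *Myog* (-0.72), *Myh3* (-1.06) and *Cd36* (-1.30) lower and *Ckm* (0.78) higher. The part of all these in the line difference of the sterol genes was not tested.

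**Figure D4:**
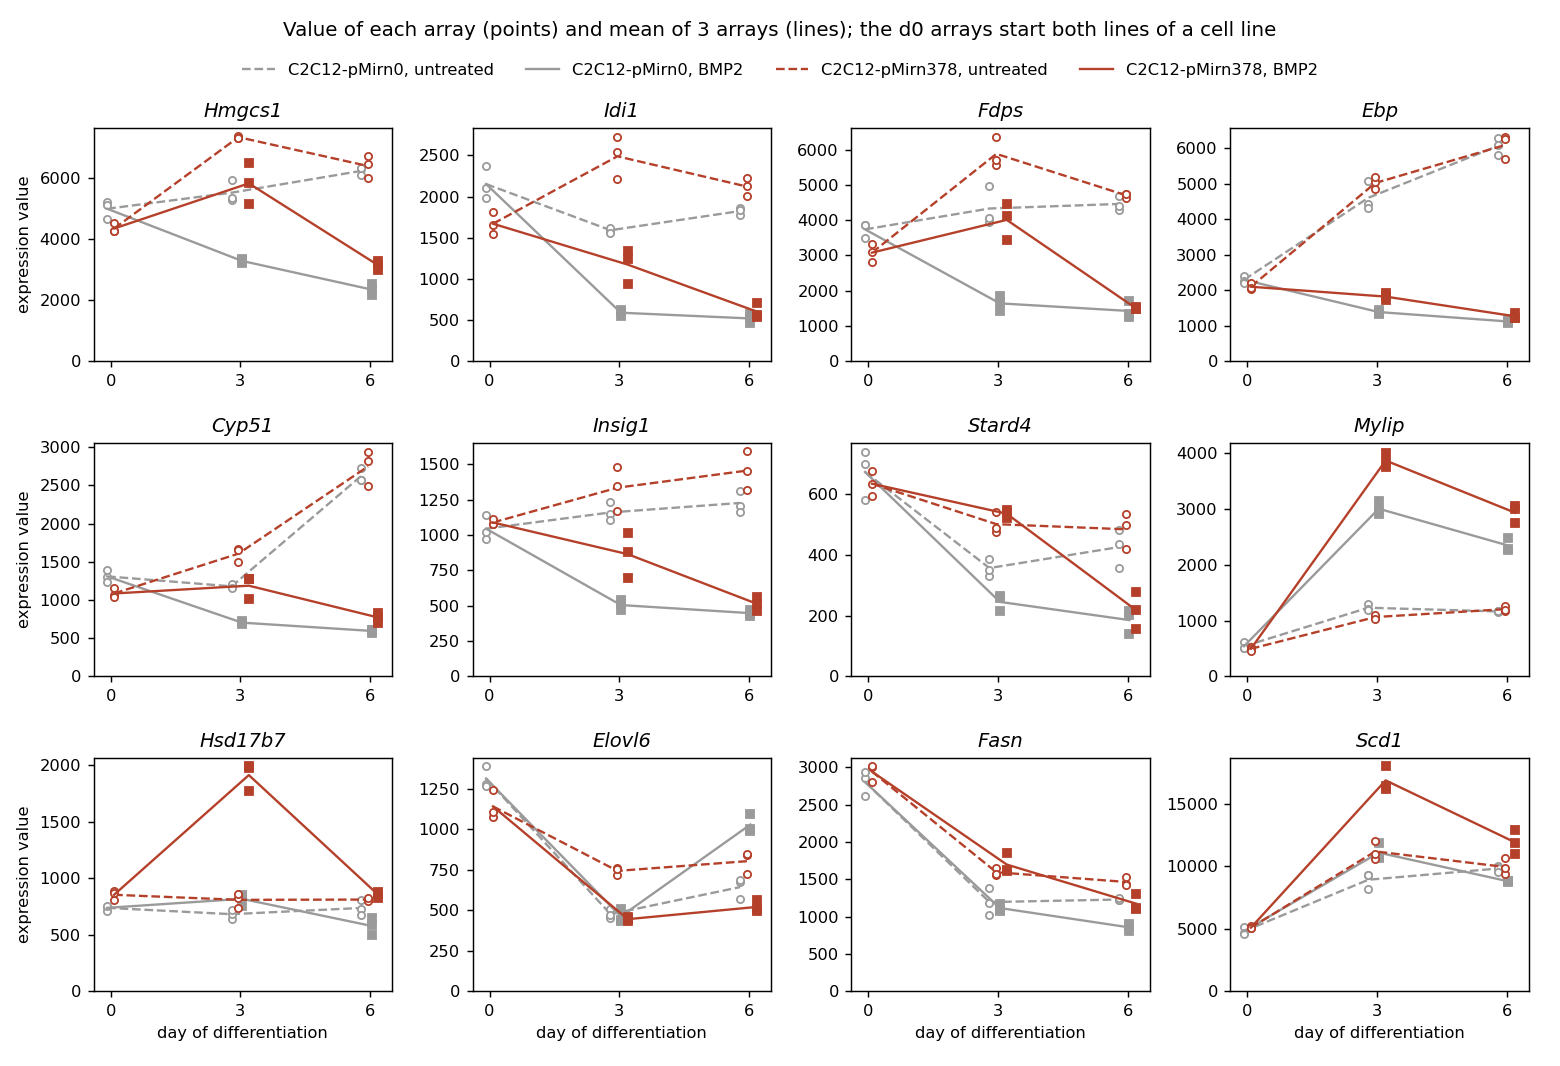
Expression value (linear scale, vertical axis) of 12 members in each array against the day of differentiation, with C2C12-pMirn0 in grey, C2C12-pMirn378 in red, untreated arrays as open circles, BMP2 arrays as filled squares, and lines through the mean of 3 arrays. At d3 with BMP2 the red squares of *Hmgcs1*, *Idi1*, *Fdps*, *Stard4* and *Hsd17b7* lie above the grey ones, and by d6 those of *Fdps* at 1469 to 1547 lie within the grey range of 1246 to 1696.

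Without BMP2 a single member was called between the lines. At d3 untreated, *Elovl6* was the one member called, at 508, 452 and 470.2 in control arrays and 761, 718 and 753 in C2C12-pMirn378 (log2 ratio 0.64, SE 0.09, adjusted p = 2.1e-04). All genes were called at 0.418% higher and 0.297% lower. The members' median was 0.25 beside 0.02, and 30 of the 34 ratios were above 0. *Lss*, the lanosterol synthase, had the highest ratio (0.77, adjusted p = 0.0072), *Idi1* came near (0.64, adjusted p = 0.0064), and *Nsdhl* passed the p-value but not the ratio (0.44, adjusted p = 0.002). At d0 no member was called, 23 of the 34 ratios were below 0, and the median was -0.12 beside -0.05. All genes at d0 were called at 0.121% higher and 0.709% lower, and 14 members had an unadjusted p under 0.05, led by *Msmo1* at 1646 ± 23.5 in control and 1226 ± 52.6 in C2C12-pMirn378 cells (log2 ratio -0.43, SE 0.10, adjusted p = 0.019). At d6 untreated no member was called either (all genes, 0.165% and 0.0824%), 8 had an unadjusted p under 0.05, and the median was 0.11 beside 0.02.

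At d6 with BMP2 no member was called higher in C2C12-pMirn378 and *Elovl6* alone was lower (all genes, 1.54% and 1.32%), with a median of 0.11 beside -0.02. *Fdps* was at 1246, 1696 and 1336 in control arrays and 1469, 1547 and 1469 in C2C12-pMirn378 (0.08, 95% interval -0.17 to 0.33), and these groups overlapped. Within C2C12-pMirn378, *Fdps* had fallen between d3 and d6 with BMP2 by 1.41 on the log2 scale, *Stard4* by 1.34, *Hsd17b7* by 1.16 and *Tm7sf2*, a sterol reductase gene, by 1.07. Below the ratio threshold but past the p-value at d6 were *Hsd17b7* (0.57), *Fasn* (0.45), *Scd1* (0.43) and *Hmgcs1* (0.42), all higher in C2C12-pMirn378.

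The change of the line difference from d3 to d6 with BMP2 was tested directly, in a contrast added after these values had been seen. It was called lower for 4 members and higher for none (all genes, 1.25% and 0.764%), with a median of -0.36 beside 0.00. The 4 were *Fdps* (log2 ratio -1.21, SE 0.17, adjusted p = 8.1e-05), *Elovl6* (-0.93, adjusted p = 6.2e-05), *Fdft1* (-0.78, adjusted p = 1.8e-04) and *Hsd17b7* (-0.66, adjusted p = 0.0032). Since the contrast shares the d3 arrays with the line difference at d3, these are not separate evidence. The call of *Hsd17b7* was lost in 10 of the 12 fits that left out 1 array, all but those without C2C12-pMirn0 d6 replicate 1 or C2C12-pMirn378 d3 replicate 1 (-0.76 to -0.57), whereas the other 3 held in all 12. The 5 division markers were called lower in this contrast as well, from -2.61 for *Birc5* to -1.52 for *Cdk1*, as were the muscle genes *Acta1* (-0.97) and *Myh3* (-1.19), and their part in it was not tested.

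**Figure D5:**
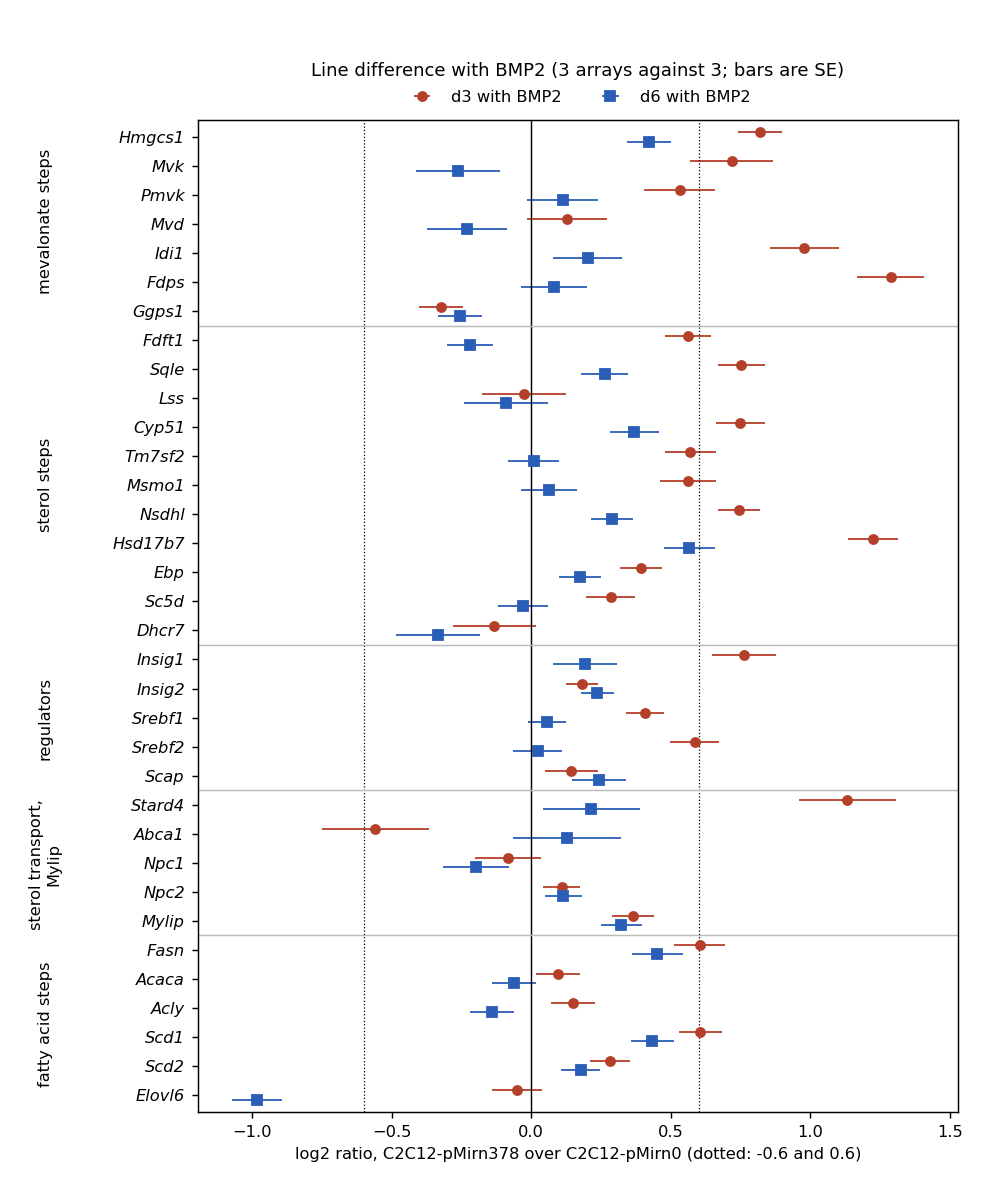
Line difference with BMP2 at d3 (circles) and d6 (squares), as the log2 ratio of C2C12-pMirn378 over C2C12-pMirn0 (horizontal axis) for the 34 members by role, with bars giving the SE (3 arrays against 3). At d3 the points of 12 members lie beyond the dotted line at 0.6, and at d6 none does, while *Elovl6* lies at -0.98, below the dotted line at -0.6.

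Whether BMP2 acted differently in the 2 lines was tested as an interaction between line and treatment. At d3 it was called higher for 2 members and lower for 1 (all genes, 1.15% and 0.874%), with a median of 0.24 beside -0.03. For *Hsd17b7* the BMP2 effect was 0.26 in control cells and 1.24 in C2C12-pMirn378 (interaction 0.98, SE 0.13, adjusted p = 5.8e-05). Beside this probe set, 2 other bright probe sets of the gene gave interactions of 0.36 and 0.91, neither called. For *Fdps* the effect was -1.40 in control cells and -0.56 in C2C12-pMirn378 (interaction 0.84, adjusted p = 0.0041), a call that held only without C2C12-pMirn0 untreated replicate 1, C2C12-pMirn0 BMP2 replicate 2 or C2C12-pMirn378 BMP2 replicate 1 and was lost in the other 9 fits without 1 array (0.74 to 0.95). Read as the mean of all its probe sets, one of them dim, the *Fdps* interaction was -0.30 and was not called. *Mylip* narrowly missed the ratio (0.58, adjusted p = 0.0017), having risen to 3765, 4011 and 3845 in C2C12-pMirn378 against 2908, 2978 and 3140.1 in the control line. All 5 division markers were called in this interaction too, from 0.95 for *Cdk1* to 1.61 for *Birc5*. *Sp7* (1.55) and *Lpl* (0.77) were called higher in it and *Myog* (-0.64), *Myh3* (-1.09) and *Cd36* (-1.20) lower, and the part of these markers was not tested.

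*Elovl6* was called in the interaction at both times. In the control line its values with BMP2 were 437, 440.0 and 511 at d3 and 1098, 1002 and 990.4 at d6, whereas in C2C12-pMirn378 they were 433, 457 and 447 and 498, 561 and 506. The control cells thus regained most of the d0 level of 1393, 1282 and 1267 and the C2C12-pMirn378 cells did not. At d6 the line difference with BMP2 was -0.98 (SE 0.09, adjusted p = 1.7e-07) and the interaction -1.30 (SE 0.13, adjusted p = 1.2e-06), the only member called in that interaction (all genes, 1.03% higher and 1.02% lower, median of members -0.04 beside -0.05). Both calls held without any 1 array, but neither was kept in fits on the compared groups alone. The other bright probe set of *Elovl6* was called in the line difference at d6 (-0.70) but not in the interaction at d6 (-0.94, adjusted p = 0.0075) or at d3 (-0.77, adjusted p = 0.031), nor in the change from d3 to d6 (-0.61). At d3 the interaction was -0.69 (adjusted p = 0.0019), where the line difference was 0.64 untreated and -0.05 with BMP2. That call held without C2C12-pMirn0 untreated replicate 1, C2C12-pMirn0 BMP2 replicate 1 or 2 or replicate 2 of either C2C12-pMirn378 group and was lost in the other 7 fits without 1 array (-0.74 to -0.62). The muscle markers *Myog*, *Acta1*, *Tnnt3* and *Myh3* were also called lower in C2C12-pMirn378 in the interaction at d6 (-1.99 to -0.70), as were the adipocyte markers *Lpl* (-0.91) and *Cd36* (-1.72). In the line difference at d6 with BMP2 the same 4 muscle markers (-2.26 to -0.88) and *Cd36* (-1.46) were lower and *Sp7* (1.08) and *Alpl* (1.32) higher. The part of these markers in the *Elovl6* result was not tested.

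Differentiation was read against the growing cells at d0. In control cells the sterol exporter gene *Abca1* rose in both media and the fatty acid synthase gene *Fasn* fell in both, whereas *Ebp* rose without BMP2 and fell with it. These comparisons share their d0 arrays within a line, and the values of each are given for themselves. In control cells without BMP2, 6 members rose and 5 fell (all genes, 11.5% and 11.7%, median of members 0.14 beside -0.04). Among the bright genes 17.8% rose and 18.5% fell, beside 17.6% and 14.7% of the members. The 6 that rose were *Abca1* (1.72), *Ebp* (1.20), *Mylip* (1.16), *Scd1* (0.96), *Dhcr7* (0.90) and *Insig2* (0.85), each as the average of its log2 ratios at d3 and d6. *Abca1* was at 59.7, 52.9 and 35.6 at d0, where it was dim, and at 243, 229 and 231 at d6. The rise of *Scd1* depended on the probe set, since its other bright one had ratios of 0.05 without and -0.02 with BMP2 in control cells. The 5 that fell were *Elovl6* (-1.25), *Fasn* (-1.21), *Stard4* (-0.79), *Acly*, the ATP citrate lyase gene (-0.74), and *Sqle* (-0.73). *Fasn* went from 2858, 2607 and 2939 at d0 to 1217, 1219 and 1251 at d6, with no overlap. The call of *Stard4* was lost without replicate 1 or 3 at d0 or at d6 (-0.89 to -0.72).

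With BMP2 the control cells had 13 members lower than at d0 and 5 higher (all genes, 10.2% and 11.6%), with a median of -0.38 beside 0.00. Against the bright genes alone the shares called were 16.2% and 18.2%. The falls were deepest in *Idi1* (-1.96), *Stard4* (-1.67), *Fasn* (-1.52) and *Fdps* (-1.30), and *Idi1* went from 2374, 1978 and 2107 at d0 to 569, 529 and 463 at d6. The others were *Insig1*, *Sqle*, *Cyp51*, *Elovl6*, *Msmo1*, *Ebp*, *Hmgcs1*, *Srebf2* and *Acly*, from -1.14 to -0.72. Other bright probe sets of *Cyp51* (-0.58 and -0.35), *Elovl6* (-0.92) and *Srebf2* (-0.39) were not called, while those of *Idi1*, *Stard4*, *Hmgcs1* and *Acly* were. *Mylip* (2.30), *Abca1* (1.83), *Npc1* (1.32), *Insig2* (1.12) and *Scd1* (1.04) rose. The fall of *Elovl6* was lost without any 1 of the d0 arrays or without d6 replicate 2 or 3 (-0.97 to -0.89, adjusted p up to 0.022).

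C2C12-pMirn378 without BMP2 had 13 members higher and 2 lower than at d0 (all genes, 12.8% and 11%, and 19% of the bright genes higher), with a median of 0.45 beside 0.14. Of the 11 sterol genes 7 rose, with *Ebp* (1.40) and *Dhcr7* (1.18) ahead of *Msmo1* (1.00), *Tm7sf2* (0.98), *Cyp51* (0.95), *Fdft1* (0.92) and *Nsdhl* (0.79). *Fdps* (0.77) and *Hmgcs1* (0.66) rose as well, as did *Abca1*, *Mylip*, *Scd1* and *Insig2*. *Fasn* (-0.94) and *Acly* (-0.61) fell, the latter losing its call without d0 replicate 1 or 2, d3 replicate 2 or d6 replicate 1 (-0.64 to -0.59). The d0 levels in these ratios were lower than in the control line for 23 of the 34 members, none of them called. With BMP2 the line had 6 members higher and 7 lower (all genes, 13.2% and 10.7%, median -0.03 beside 0.08). Among the bright genes 20.1% were higher and 16.9% lower, beside 17.6% and 20.6% of the members. *Mylip* (2.77), *Abca1* (1.73), *Scd1* (1.47), *Insig2* (1.47), *Tm7sf2* (0.97) and *Npc1* (0.87) were higher, and *Elovl6* (-1.24), *Fasn* (-1.06), *Idi1* (-1.00), *Stard4* (-0.91), *Acly* (-0.72), *Insig1* (-0.72) and *Sqle* (-0.69) lower. The markers of division fell in all 4 of these courses, all 5 being called lower in each. All 5 muscle markers rose without BMP2 in both lines, whereas with BMP2 3 fell in control cells and 5 in C2C12-pMirn378. All 3 osteoblast markers and *Col2a1* rose with BMP2 in both lines, and *Sox9* fell in all 4 courses. Of the 6 adipocyte markers, 2 rose and 1 fell in control cells without BMP2 and 5 rose with it, and in C2C12-pMirn378 3 rose and 1 fell without BMP2 and 3 rose with it. The part of these markers in the member changes was not tested.

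Neighbouring pathway genes outside the module, 39 measured of 48 listed, had more genes called higher than lower with BMP2 in both lines. They were 19 fatty acid, 12 sterol and 8 isoprenoid genes. The median BMP2 effect on the 12 sterol neighbours was -0.06 at d3 and -0.02 at d6 in control cells. In C2C12-pMirn378 it was -0.19 and -0.17, although more of the 12 were called higher than lower each time in both lines. Of all 39 in control cells at d6, 7 were higher with BMP2 and 4 lower (17.9% and 10.3%, beside 11% and 10.6% of all genes), with a median of 0.09 beside 0.08 over all genes. Of the bright genes 17.3% were higher and 16.3% lower there, so the share of neighbours called higher was near that of bright genes. *Acsl3*, which activates fatty acids (-1.56), and *Tecr*, a reductase of chain elongation (-1.17), fell. *Me1*, the malic enzyme that supplies NADPH for fatty acid synthesis (1.76), and *Elovl5*, an elongase of polyunsaturated chains (1.18), rose. At d3 in control cells 7 were higher and 2 lower (all genes, 11.2% and 8.48%), with *Me1* (2.21), *Elovl5* (1.24) and the SREBP-cutting protease gene *Mbtps1* (0.97) higher and *Tecr* (-0.86) lower. In C2C12-pMirn378 the counts were 9 higher and 2 lower at d3 (all genes, 13.3% and 9.84%), *Me1* being at 2.59, and 8 higher and 5 lower at d6 (all genes, 10.8% and 11.1%), where *Acsl3* was at -1.28 and *Tecr* at -1.34. Against d0, 9 rose and 4 fell in control cells without BMP2 (all genes, 11.5% and 11.7%) and 13 rose and 2 fell with it (all genes, 11.6% and 10.2%). In C2C12-pMirn378 the counts were 7 and 3 without BMP2 (all genes, 12.8% and 11%) and 13 and 2 with it (all genes, 13.2% and 10.7%). *Acsl3* rose without BMP2 in both lines (1.69 and 2.05), as did *Acss2*, which makes acetyl-CoA from acetate (2.10 and 2.02), while *Tmem97*, a sterol-responsive membrane protein gene, fell (-1.73 and -1.56). *Lpin1*, a phosphatase of triglyceride synthesis, rose with BMP2 in both (1.87 and 2.28). At d3 with BMP2, 3 of these 39 were higher in C2C12-pMirn378 and none lower (all genes, 2.49% and 1.87%), namely *Acss2* (0.85), the desaturase gene *Fads2* (0.76) and *Dgat1*, the last enzyme of triglyceride synthesis (0.69). At d6 with BMP2, *Dgat1* was still higher (0.67) and *Nceh1*, a cholesteryl ester hydrolase, lower (-0.73), 1 gene each way (all genes, 1.54% and 1.32%).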

How the data were processed

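Total RNA of 30 cultures was hybridised to Affymetrix Mouse Genome 430 2.0 arrays. The authors' processing used RMA with quantile normalisation in R 2.4.1, and the deposited values are intensities on a linear scale for 45101 probe sets, whose distributions are not identical between arrays. No value lies at or below 0, so they were taken to log2 with no pseudocount. No scanner signal over background was used here, and the number of arrays limits the precision. Probe sets were named from the GEO platform annotation, where 34958 carry 1 symbol and 932 several, and a gene was read from its brightest single-symbol probe set. The 10 group means were fitted with limma 3.58.1 in R 4.3.3 (lmFit, contrasts.fit, eBayes), with Benjamini-Hochberg adjustment over all probe sets within each contrast, and tested on simulated data. Thresholds (adjusted p under 0.005, log2 ratio beyond 0.6) follow the study's methods and were carried over to the BMP2 effect and the interaction. An adjusted p printed here is limma's. Of 16 comparisons 15 were planned and 1, the change from d3 to d6, was added. Members, gene lists and tests were chosen with earlier results of these data known. The members named in a comparison were the 4 that rose most and the 4 that fell most, those called against most of their role group, and the brightest of each role group, with other called or near-threshold members added after their values were seen. Of the other pathway genes those among the 4 with the smallest adjusted p were named. Alternatives were the replicate number as a block, a filter on dim probe sets, trend and robust moderation, rescaling of arrays, a floor of 50, the mean of all probe sets of a gene, fits on the compared groups alone, an adjusted p under 0.05 with no minimum ratio, and each array left out. Promoter motifs were searched as exact letters.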

Additional observations from a re-analysis of the deposited data

Results flagged for a closer look

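Members whose effect was called different between the lines, by the test of the difference itself, are listed here with their log2 values. When the BMP2 effect at d3 was compared between lines, *Hsd17b7* was at 0.98, *Fdps* at 0.84 and *Elovl6* at -0.69, a positive value meaning a higher BMP2 ratio in C2C12-pMirn378 than in C2C12-pMirn0. In the same comparison at d6, *Elovl6* was at -1.30. In the change of the line difference from d3 to d6 with BMP2, *Fdps* was at -1.21, *Elovl6* at -0.93, *Fdft1* at -0.78 and *Hsd17b7* at -0.66. The last contrast was chosen after the values had been seen. None of these calls was kept in fits on the compared groups alone. At d3, *Fdps* lost its call in 9 and *Elovl6* in 7 of the 12 fits that left out 1 array. *Hsd17b7* lost its call in the change from d3 to d6 in 10 of 12, and the other calls held in all such fits. As the mean of all its probe sets *Fdps* at d3 was at -0.30 and not called.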

How the results depend on the processing

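Of 145 member results past the thresholds, 101 stayed past them in every alternative other than the fits on the compared groups alone and those without 1 array. Leaving out 1 array lost 16 in at least 1 fit, and 92 stayed past the thresholds when these fits were counted too. No strong pairing by the labels' replicate numbers was seen, since every pair correlated above 0.1 in 1 of 21 contrasts (r from -0.13 to 0.23). Such correlations cannot show whether same-numbered arrays came from the same experiment. With the replicate number as a block all 145 kept their calls, with 12 members higher in C2C12-pMirn378 at d3 with BMP2. The cause of the changes below was not tested, apart from what an alternative itself changes. Of the 145 results, 75 had another bright probe set of the same gene, and in 42 of these all such sets had the same call. Such a set had the opposite sign in 2 results and was called in the opposite direction in 0. With the mean of all probe sets of a gene, which adds dim and other bright ones, 39 member results were lost with their sign kept. A further 2 changed sign and were not called. These were the BMP2 effect on *Fdft1* in control cells at d6, which became 0.15, and the interaction of *Fdps* at d3, which became -0.30. That setting also gave 3 members higher in control differentiation with BMP2, 1 lower in C2C12-pMirn378 differentiation without it, 3 higher with BMP2 in control cells at d6, 0 higher between the lines at d3 untreated, 0 lower in the interaction at d3 and 1 lower in the change from d3 to d6. Fits on the compared groups alone, which have fewer arrays behind the spread, lost 49 member results. They gave 3 higher with BMP2 in control cells at d6, 3 higher and 3 lower in C2C12-pMirn378 at d3 and 1 higher at d6, 0 higher between the lines at d3 untreated and at d3 with BMP2, 0 lower at d6 with BMP2, 0 in either direction in the interaction at d3, 0 lower in the interaction at d6 and 0 lower in the change from d3 to d6. Rescaling the arrays, by at most 0.0804 on the log2 scale, lost 6 and gave 1 lower in C2C12-pMirn378 differentiation without BMP2 and 3 higher with BMP2 in that line at d3. The dim filter, trend and robust moderation, and the floor of 50 each gave 3 higher between the lines at d3 untreated and lost none. With an adjusted p under 0.05 and no minimum ratio, differentiation gave 14 higher and 8 lower in control cells, 8 and 20 in control cells with BMP2, 20 and 6 in C2C12-pMirn378 and 11 and 18 in C2C12-pMirn378 with BMP2. The BMP2 effect then had 11 higher in control cells at d3, 14 higher in C2C12-pMirn378 at d3 and 8 higher at d6. The line difference had 2 lower at d0, 9 higher at d3 untreated, 23 higher and 1 lower at d3 with BMP2, and 8 higher at d6 with BMP2. The interaction had 4 higher and 2 lower at d3 and 1 higher and 2 lower at d6, and the change from d3 to d6 had 11 lower. With each array left out in turn, control differentiation gave 6 to 7 higher and 4 to 5 lower without BMP2 and 12 to 14 lower with it, C2C12-pMirn378 differentiation 1 to 2 lower without BMP2 and 6 to 7 higher and 7 to 8 lower with it, the BMP2 effect 2 to 3 higher and 10 to 12 lower in control cells at d3, 4 to 5 and 13 to 14 at d6, 5 to 7 and 8 to 10 in C2C12-pMirn378 at d3 and 14 to 16 lower at d6, the line difference 10 to 13 higher at d3 with BMP2 and 0 to 1 higher at d6, the interaction at d3 1 to 2 higher and 0 to 1 lower, and the change from d3 to d6 3 to 5 lower. Groups of 3 arrays limit what could be called, and for dim probe sets the spread between replicates was 0.846 on the log2 scale against 0.145 for bright ones.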
